A study of Sus scrofa with 8 samples.

Results

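Voltage-gated, inward-rectifier and related channel genes of the heart were examined in pigs of 2 breeds from highland and lowland. They were taken as the rows of the expression table whose gene name begins with KCN, SCN, CACN or HCN and that reached at least 1 FPKM (fragments per kilobase of transcript, scaled to the mapped fragments of the library) in at least 1 library other than YL2. Of 109 such rows among the 18975 genes listed, 28 met this rule, namely 18 of 69 KCN rows, 3 of 15 SCN rows, 6 of 21 CACN rows and 1 of 4 HCN rows. *SCNM1* was picked up by its name alone, since it encodes a splicing factor and not a channel. Just inside the threshold were *KCNG2*, *KCNT2* and *KCNE2*, whose highest values outside YL2 were 1.65, 2.0 and 2.10 FPKM. Just outside it were *SCN7A*, *KCNE4* and *KCNJ14* at 0.952, 0.874 and 0.782 FPKM. Another 7 rows reached 1 FPKM only in YL2, and 74 rows did so in no library. A further 8 genes bear a name with these beginnings only in a separate list of gene names and are not among these rows. None of them reached 1 FPKM outside YL2.

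The groups were Tibetan pigs from highland (TH), Tibetan pigs from lowland (TL), Yorkshire pigs from highland (YH) and Yorkshire pigs from lowland (YL). All animals were males of 6 months, and each group had 2 RNA-seq libraries of heart. RNA of several pigs was pooled for each library, so the spread between libraries is one between pools, and with 2 against 2 an exact permutation test cannot go below p = 0.333. Which part of the heart was taken is not given in the sources used here, and for YL1 and YL2 a description naming the TL file conflicts with their titles and breed, which were followed.

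The heartbeat depends on channels that open in sequence. Sodium channels start the action potential, calcium channels sustain it and trigger contraction, and several potassium currents end it: a fast transient outward current, the rapid and slow delayed rectifiers and the inward rectifier, which also holds the resting potential. Most pores work with auxiliary subunits that set their number, gating and place in the membrane. Potassium channels closed by ATP and those opened through acetylcholine receptors link the beat to metabolism and to the vagus nerve.

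Between 15700000 and 26700000 reads per library fell on genes, with a median of 19650000. YL2 stood apart. A list of 16 kidney markers, 12 of which were listed, summed to 8639 FPKM in YL2 against 2.2 to 19.1 FPKM in the other libraries, and the 7 listed heart muscle markers were at a median of 0.391 times their level in YL1. TH stood apart in another way: *NPPA*, a natriuretic peptide gene and atrial marker, was at 2264 and 2146 FPKM in TH against 23.1 to 108 FPKM elsewhere, and the intermediate filament gene *DES* was at 9125 and 5761 FPKM against 920 to 3510 FPKM. TH1 had the highest FPKM sum and the fewest genes at 1 FPKM or more, 10233 against 10661 to 12027. Log2 fold changes that use YL2 are therefore also given without it, and in bulk RNA fewer cells of a type and less RNA per cell cannot be told apart.

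Channel RNA of these hearts was dominated by a few potassium channel genes. *KCNE1*, *KCNJ4*, *KCNIP2*, *KCNJ8* and *KCNH2* together held 74.1% to 83.3% of the FPKM summed over the 28 genes in each library. That sum was 496 to 806 FPKM outside YL2 and 301 FPKM in YL2. By mean over the libraries other than YL2, the order was led by *KCNE1*, *KCNJ4*, *KCNIP2*, *KCNJ8* and *KCNH2*, followed by *KCNJ5*, *CACNA1C* and *KCNJ3*. The order differed between groups: *KCNIP2* was the seventh highest gene in both TH libraries and among the 4 highest in the 6 others. The ranges of neighbours over those 7 libraries overlapped in all 27 pairs, but within libraries 3 pairs kept 1 order in all 8, with *KCNJ8* above *KCNH2*, *KCNJ5* above *CACNA1C* and *KCNJ2* above *KCNJ11*. All but 8 genes reached 1 FPKM in every library, and 21 of the 28 did so in every group. Outside YL2, *CACNA2D3* and *KCNK6* reached it in Tibetan libraries alone, *KCNT2* in TL alone, *KCNAB1* in every group but TH and *KCNK12* in every group but YH. These genes were chosen through the groups where they are high, so their differences between such groups are a description and are given with no p-value, though counts over the 28 genes include them. FPKM compares genes only as well as the gene models allow: the models of *KCNE1* and *KCNE2* span 391 and 373 bases, and that of *KCNH2* spans 6468 bases.

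**Figure D1:**
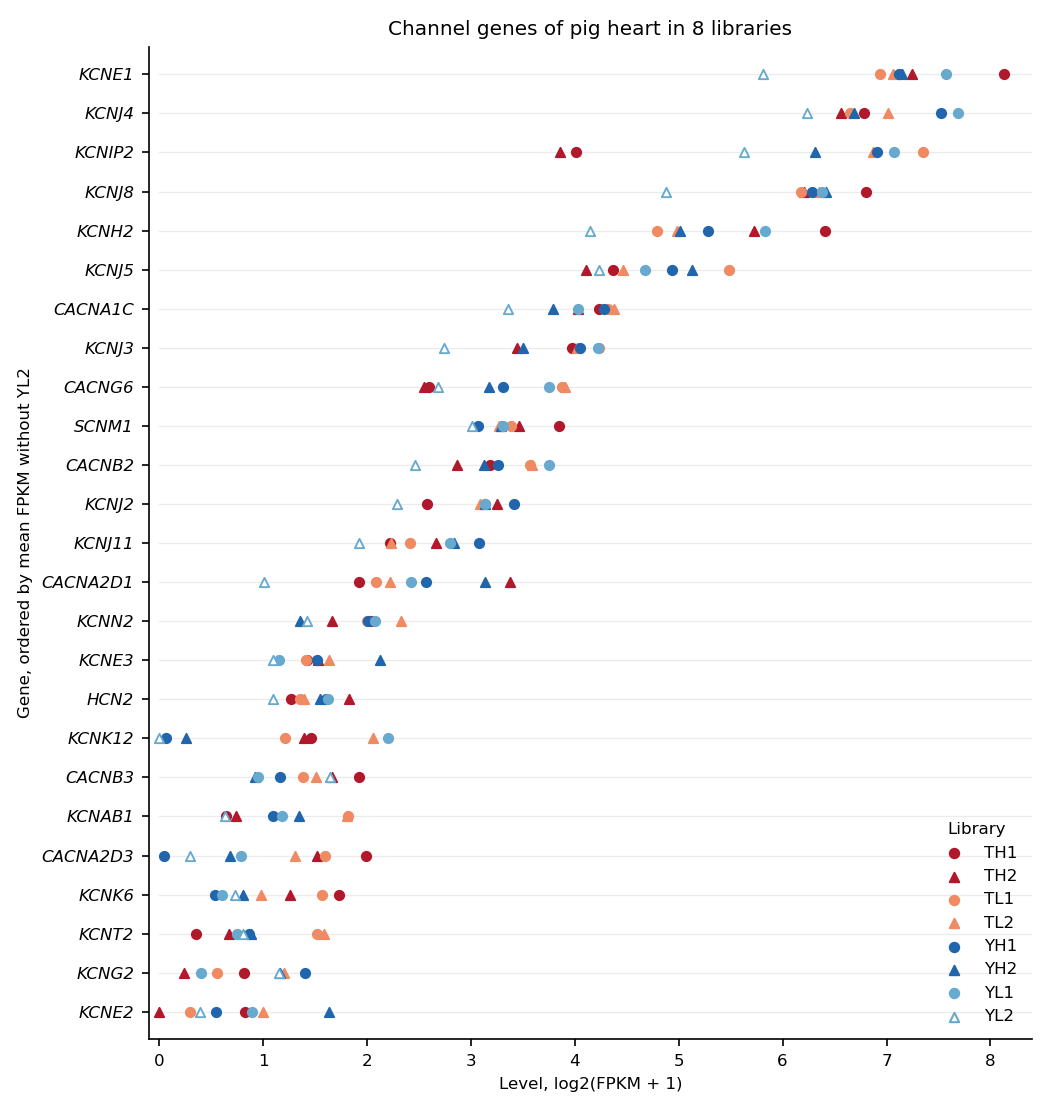
Level of 25 of the 28 channel genes on the log2(FPKM + 1) scale in each of the 8 libraries, with colours for groups, circles for replicate 1, triangles for replicate 2 and an open triangle for YL2. The 2 TH points of *KCNIP2*, at 15.2 and 13.5 FPKM, lie far to the left of its other points, and YL2 is the lowest library for 15 of the genes drawn.

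Several of these genes lie beside a relative in the genome, by the Sscrofa10.2 coordinates of the table. *KCNE2* and *KCNE1* are 71.0 kb apart on chromosome 13, at 207808670 to 207880402 together, yet *KCNE1* had at least 383 reads in every library while *KCNE2* had at most 10. *KCNJ5* lies 51.2 kb from *KCNJ1* on chromosome 9, and *KCNJ2* lies 37.4 kb from *KCNJ16* on an unplaced scaffold. *KCNJ5* and *KCNJ2* were found in all 8 libraries, whereas *KCNJ1* and *KCNJ16* reached 1 FPKM in YL2 alone.

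Differences between groups were tested with limma on log2(FPKM + 1) over the 11913 genes that reached 1 FPKM in 2 libraries or more, a filter that all 28 channel genes passed. A call needed a Benjamini-Hochberg adjusted p below 0.01 together with a log2 fold change above 1 in either direction. None of the 28 was called, in any comparison or in the interaction of breed and altitude. The shares of all tested genes called were 0.0336% in TH to YH, 0.00839% in TL to YL, 0.0504% in TH to TL, 0% in YH to YL and 0.0336% in the interaction. The lowest adjusted p of a channel gene was 0.0942, for *KCNIP2* in TH to YH. The values below are therefore levels and differences that did not pass the test, with unadjusted p-values from limma where given.

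In TH to YH, which compares the breeds at highland, 3 of the 28 genes were higher and 2 lower in TH at an unadjusted p under 0.05, beside 7.71% and 8.47% of all tested genes. TH libraries were all above YH libraries for 7 genes and all below for 9, beside 25.2% and 27.3% of tested genes. Without YL2, which changes only the shared estimate of the spread here, 9 of 28 genes passed an unadjusted p of 0.05 in either direction, beside 22.7%. The median log2 fold change of the 28 was -0.19 and that of all tested genes -0.03.

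In TL to YL, the breeds at lowland, 3 genes were higher and 0 lower in TL at an unadjusted p under 0.05, beside 5.90% and 3.04%. Libraries were apart for 7 genes with TL above and 2 with TL below, beside 23.8% and 17.8%. The median of the 28 was 0.42 against 0.02 for all genes, but 0.0029 without YL2, where 3 genes passed an unadjusted p of 0.05 beside 9.72% of tested genes.

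In TH to TL, the altitudes in Tibetan pigs, 0 genes were higher and 4 lower in TH at an unadjusted p under 0.05, beside 5.81% and 5.53%. TH was apart above TL for 5 genes and below for 9, beside 24.0% and 24.5%. The median of the 28 was -0.18 against -0.02 for all genes, and without YL2 6 genes passed an unadjusted p of 0.05 beside 17.1%.

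In YH to YL, the altitudes in Yorkshire pigs, 2 genes were higher and 0 lower in YH at an unadjusted p under 0.05, beside 4.39% and 1.58%. YH was apart above YL for 9 genes and below for 0, beside 21.9% and 14.4%. The median of 0.27 became 0.021 without YL2, where 2 genes passed an unadjusted p of 0.05 beside 5.45%. In the interaction, which subtracts the altitude difference of Yorkshire pigs from that of Tibetan pigs, 0 genes were higher and 5 lower at an unadjusted p under 0.05, beside 3.78% and 7.16%. Without YL2, 7 genes passed it in either direction beside 12.8%, and the median of the 28 moved from -0.56 to 0.015.

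**Figure D2:**
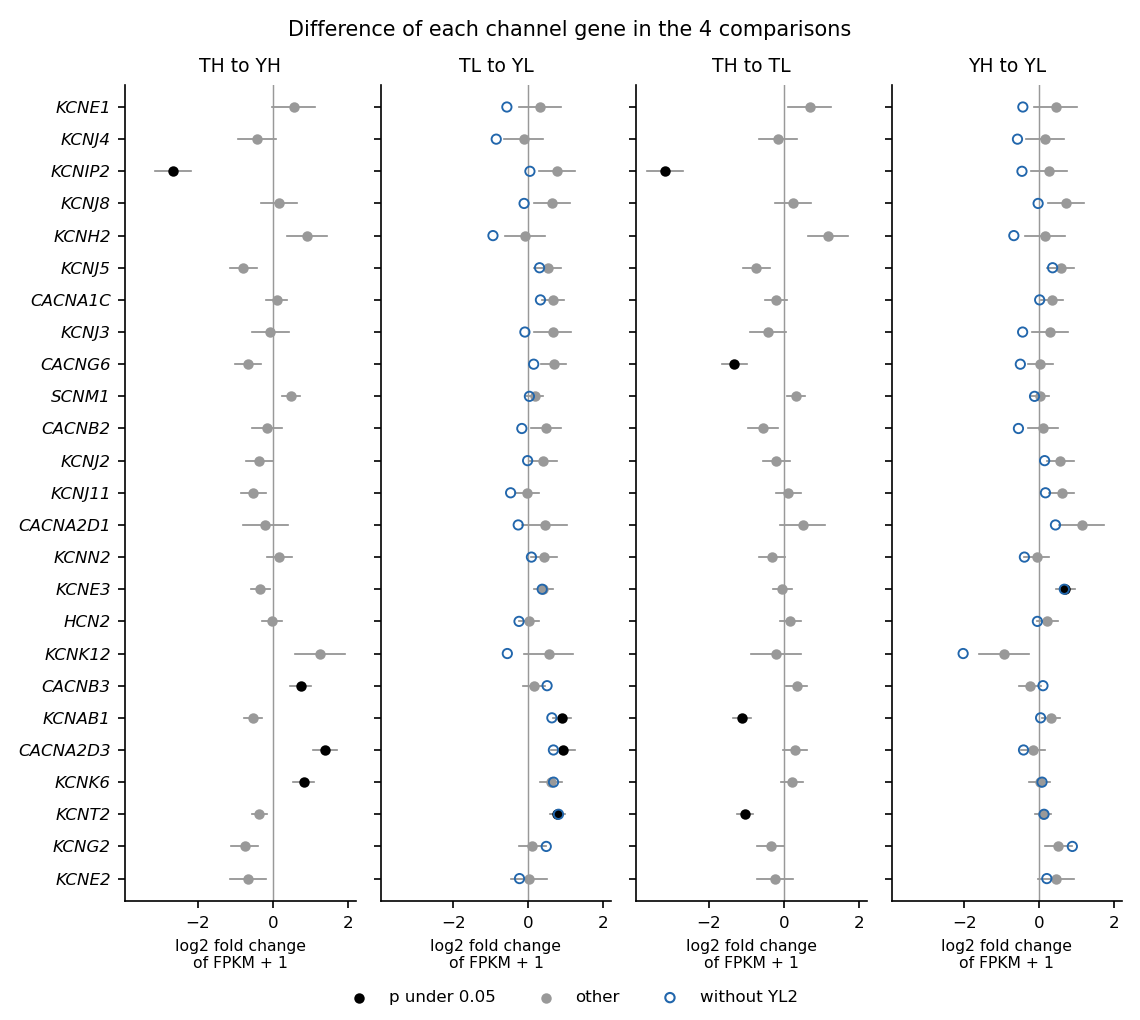
Log2 fold change of FPKM + 1 for 25 of the 28 channel genes (rows) in the 4 comparisons (panels), with bars for the standard error. Black points mark an unadjusted p under 0.05 in limma, and open circles the fit without YL2 where the comparison uses that library. Black points of *CACNA2D3*, *KCNK6*, *KCNT2* and *KCNAB1*, chosen through the groups where they are high, are a description and no test result. *KCNIP2* stands at -2.67 in TH to YH and at -3.18 in TH to TL, and the medians over all 28 of 0.42 in TL to YL and 0.27 in YH to YL become 0.0029 and 0.021 without YL2.

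*KCNIP2* had the lowest TH level relative to the other groups. It encodes a calcium-binding auxiliary subunit of the transient outward potassium channels of the heart, and the table places it on chromosome 14 from 122709354 to 122726483. Its level was 15.2 and 13.5 FPKM in TH1 and TH2, 163 and 116 FPKM in TL1 and TL2, 119 and 78.4 FPKM in YH1 and YH2, and 134 and 48.6 FPKM in YL1 and YL2. Both TH libraries lie below all 6 others, YL2 included. These levels rest on 680 and 555 reads in TH and on 3325 to 8053 reads elsewhere.

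Group means of *KCNIP2* were 14.4 ± 1.16 FPKM in TH and 140 ± 32.8 FPKM in TL (SD, n = 2), a ratio of 9.71, and 98.8 ± 28.8 FPKM in YH, a ratio of 6.88. The log2 fold change was -3.18 ± 0.48 (SE) in TH to TL, with an unadjusted p of 0.000341 and an adjusted p of 0.113 in limma. In TH to YH it was -2.67 ± 0.48, with an adjusted p of 0.0942. Without YL2 these adjusted p-values were 0.0200 and 0.0282, still over 0.01. After scaling all libraries to an equal FPKM sum, both differences were called in limma, at adjusted p-values of 0.00103 and 0.00213. The share of all genes called under that scaling is not given here. The share of *KCNIP2* in the summed FPKM of the 28 genes was 2.12% and 2.73% in TH and 13.7% to 25.3% in the other 6 libraries.

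The interaction compares this altitude difference between the breeds. For *KCNIP2* in Yorkshire pigs, YH and YL overlapped, with a log2 fold change of 0.26 that turned to -0.46 without YL2. The interaction was -3.43 ± 0.68 with an unadjusted p of 0.00161 and an adjusted p of 0.260. It was -2.71 without YL2, with an adjusted p of 0.179. The pore genes that this subunit serves were near the detection limit: *KCND3*, whose gene model spans 1111 bases, was at most at 0.462 FPKM and *KCND2* at most at 0.165 FPKM, so no comparison with the pore was possible.

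*CACNG6* and *KCNT2* were the other genes with both TH libraries below all 6 others. Such a pattern held for 10.7% of the 28 genes and for 8.06% of all tested genes. *CACNG6* encodes a gamma subunit of voltage-gated calcium channels. It was at 5.03 and 4.84 FPKM in TH, 13.7 and 14.0 FPKM in TL, 8.93 and 8.01 FPKM in YH, and 12.4 and 5.41 FPKM in YL. The libraries of a group lie close together except in YL, and TL is above every other library. In TH to TL its log2 fold change was -1.32 ± 0.34, with an unadjusted p of 0.00640 and an adjusted p of 0.261 in limma.

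*KCNT2* encodes a potassium channel opened by intracellular sodium. Its level was 0.279 and 0.593 FPKM in TH, 1.86 and 2.0 FPKM in TL, 0.816 and 0.848 FPKM in YH, and 0.680 and 0.746 FPKM in YL. The TL libraries are the highest and the TH libraries the lowest, with both Yorkshire groups between them. The log2 fold change on the log2(FPKM + 1) scale, which understates differences at such levels, was -1.04 ± 0.21 in TH to TL and 0.78 ± 0.21 in TL to YL, the latter 0.80 without YL2. *KCNT2* met the threshold through TL alone. Reads ranged from 28 to 48 in TH and from 185 to 224 in TL.

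*KCNAB1* encodes a beta subunit that speeds the inactivation of voltage-gated potassium channels. It was at 0.564 and 0.666 FPKM in TH, 2.52 and 2.51 FPKM in TL, 1.13 and 1.55 FPKM in YH, and 1.28 and 0.557 FPKM in YL. TL was the highest group here too, while YL2 was slightly below TH1. Its log2 fold change was -1.12 ± 0.25 in TH to TL and 0.90 ± 0.25 in TL to YL, the latter 0.63 without YL2. The interaction was -1.43 for *KCNAB1*, -1.14 for *KCNT2* and -1.35 for *CACNG6*, the last with an adjusted p of 0.398 in limma. Without YL2 these interactions were -1.16, -1.16 and -0.81 for *KCNAB1*, *KCNT2* and *CACNG6*, the last with an adjusted p of 0.328.

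*KCNH2* and *KCNE1* were at their highest in TH1. *KCNH2*, the pore of the rapid delayed rectifier, was at 83.7 and 51.7 FPKM in TH, 26.6 and 30.6 FPKM in TL, 38.0 and 31.3 FPKM in YH, and 55.9 and 16.7 FPKM in YL. TH is above TL and YH, but YL1 is above TH2. The log2 fold change was 1.18 ± 0.53 in TH to TL (unadjusted p = 0.0638 in limma) and 0.91 ± 0.53 in TH to YH, and these were 0.52 and -0.049 after scaling all libraries to an equal FPKM sum. Without TH1 the log2 fold change of *KCNH2* in TH to YH was 0.57. Without YL2 the unadjusted p-values of *KCNH2* in these tests were 0.00475 and 0.0150.

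*KCNE1* encodes the auxiliary subunit of the slow delayed rectifier. It was at 279 and 150 FPKM in TH, 121 and 133 FPKM in TL, 139 and 140 FPKM in YH, and 190 and 55.0 FPKM in YL. TH1 stands apart from the 7 others, and TH2 differs little from YH. The log2 fold change of *KCNE1* was 0.69 in TH to TL, 0.24 without TH1 and 0.052 after scaling to an equal FPKM sum. *KCNQ1*, the pore of this current, was not analysed here.

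**Figure D3:**
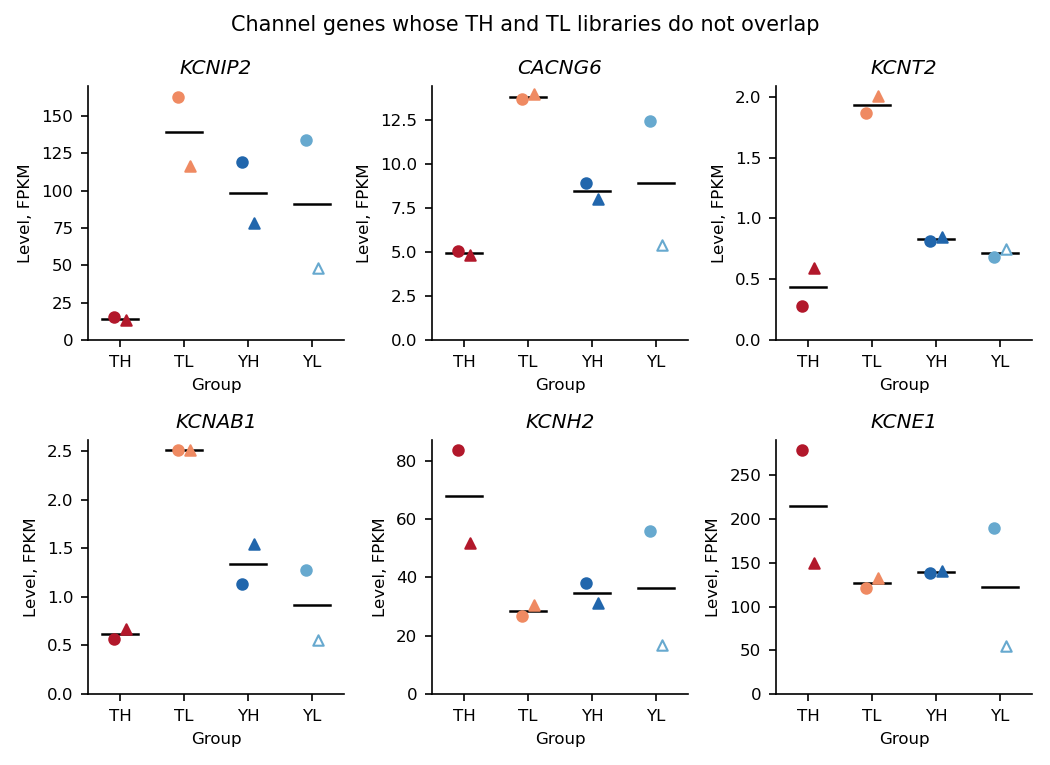
FPKM of 6 channel genes by group, with a point per library (circle for replicate 1, triangle for replicate 2, open for YL2) and a line at the group mean. TH lies below TL for *KCNIP2*, *CACNG6*, *KCNT2* and *KCNAB1* and above TL for *KCNH2* and *KCNE1*, where TH1 at 83.7 and 279 FPKM is the highest library.

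Some markers of cell types and chambers differed in TH and stand beside these values. The 7 heart muscle markers had a median log2 fold change of -0.95 in TH to TL, with 1 positive. In TH to YH their median was -0.54, with 3 positive. Summed, these markers were at 28528 and 14710 FPKM in TH and at 10124 to 23833 FPKM elsewhere. The 8 atrial markers, all listed and none at 0 in every library, summed to 6648 and 5411 FPKM in TH, 1577 and 2711 FPKM in TL, 872 and 1183 FPKM in YH, and 2712 and 419 FPKM in YL. Of this list *NPPA* and *MYL7* carried most, while *MYH6*, also an atrial marker, was at 20.6 and 18.4 FPKM in TH against 75.1 to 246 FPKM in the other libraries except YL2, at 2.60 FPKM. The 7 vascular smooth muscle markers summed to 9495 and 6100 FPKM in TH and to 1032 to 3638 FPKM elsewhere, most of it *DES*, which heart muscle also makes. Of the other smooth muscle markers, *TAGLN* was at 146 and 131 FPKM in TH against 40.4 to 98.4 FPKM elsewhere, and *CNN1* at 132 and 89.5 FPKM against 10.9 to 61.7 FPKM, so that both TH libraries were above all 6 others for these genes as for *DES*. *MYH11*, a defining smooth muscle gene, was at 0.388 and 2.69 FPKM in TH against 1.88 to 4.87 FPKM elsewhere, and *ACTA2*, *SMTN* and *MYLK* of this list also overlapped between TH and the other libraries. The ventricle markers *MYL3* and *IRX4* were at 5341 to 7440 and 12.0 to 21.1 FPKM in TH, inside or above the range of the other groups outside YL2 save for TH2 in *MYL3*. The part of chamber or cell makeup in the TH differences of channel genes was not tested.

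Of the 28 genes, 4 are on the list of atrial and nodal channels. None of these had both TH libraries above all other libraries, beside 10.1% of all tested genes. With so few genes this is a description. *KCNJ3* and *KCNJ5* encode the subunits of the acetylcholine-activated inward rectifier, which is far stronger in atrium than in ventricle. *KCNJ5* was at 19.7 and 16.2 FPKM in TH, 43.7 and 21.1 FPKM in TL, 29.5 and 34.0 FPKM in YH, and 24.6 and 17.8 FPKM in YL. TH was thus below both TL and YH, with a log2 fold change of -0.79 ± 0.36 in TH to YH (adjusted p = 0.341 in limma) and an interaction of -1.31 at an unadjusted p of 0.0376. Without YL2 this interaction of *KCNJ5* was -1.09 at an unadjusted p of 0.0914. *KCNJ3* was at 14.7 and 9.88 FPKM in TH, 17.8 and 15.2 FPKM in TL, 15.5 and 10.3 FPKM in YH, and 17.7 and 5.71 FPKM in YL, with overlap of TH and YH.

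Of the 12 genes on the list of atrial and nodal channels, 10 were listed and 4 were among the 28. Beside *KCNJ3* and *KCNJ5* these were *KCNN2*, a potassium channel opened by calcium, at 1.55 to 4.01 FPKM, and *HCN2*, a pacemaker channel, at 1.13 to 2.55 FPKM. None of the 4 was called, and *KCNN2* and *HCN2* overlapped in all 4 comparisons. *HCN4*, the main pacemaker channel of the sinus node, was at most at 0.0332 FPKM, *CACNA1D* at most at 0.226 FPKM and *CACNA1G* at most at 0.452 FPKM. *KCNA5* and *CACNA1H* were not analysed here.

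The inward rectifiers formed the largest class, with 6 of 13 listed KCNJ genes among the 28. *KCNJ4* and *KCNJ2* encode pores of the current that holds the resting potential. *KCNJ4* was at 109 and 93.4 FPKM in TH, 99.7 and 128 FPKM in TL, 183 and 102 FPKM in YH, and 205 and 74.3 FPKM in YL. Groups overlapped in all 4 comparisons, and YL1 is the highest library and YL2 the lowest. *KCNJ2* ranged from 4.97 to 9.65 FPKM outside YL2 and was at 3.89 FPKM there. *KCNJ12*, another pore of this current, was not analysed here.

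*KCNJ8* and *KCNJ11* encode the pores of potassium channels closed by ATP, of which the former is typical of vessels and the latter of heart muscle. *KCNJ8* was at 111 and 72.7 FPKM in TH, 71.5 and 80.8 FPKM in TL, 76.7 and 84.6 FPKM in YH, and 82.4 and 28.5 FPKM in YL, the narrowest span of the 5 highest genes outside YL2. Its groups overlapped in all 4 comparisons. *KCNJ11* was at 3.65 and 5.32 FPKM in TH, 4.32 and 3.68 FPKM in TL, 7.47 and 6.13 FPKM in YH, and 5.94 and 2.81 FPKM in YL. YH was above TH and YL, with log2 fold changes of -0.52 ± 0.33 in TH to YH and 0.60 ± 0.33 in YH to YL, the latter 0.16 without YL2. Other smooth muscle channels were low, with *KCNMA1* at most at 0.331 FPKM and *KCNMB1* at most at 0.538 FPKM, though *TAGLN*, a smooth muscle marker, was at 40.4 to 146 FPKM.

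*CACNA1C*, the pore of the L-type calcium channel, was at 12.9 to 19.8 FPKM outside YL2 and 9.26 FPKM in YL2. The highest library outside YL2 was 1.54 times the lowest, and TH and YH overlapped. In TL to YL the log2 fold change of *CACNA1C* was 0.66, and 0.32 without YL2.

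Calcium channel auxiliary subunits numbered 5 of the 28 genes. *CACNB2*, the main beta subunit of heart, was at 8.09 and 6.29 FPKM in TH, 10.9 and 11.0 FPKM in TL, 8.58 and 7.75 FPKM in YH, and 12.5 and 4.52 FPKM in YL, with TH below TL. *CACNA2D1*, which helps carry the pore to the membrane, was at 2.79 and 9.42 FPKM in TH, the pair of libraries furthest apart in that group. It was at 3.24 and 3.67 FPKM in TL, 4.94 and 7.82 FPKM in YH, and 4.37 and 1.02 FPKM in YL. The sodium channel beta subunits *SCN2B* and *SCN4B* stayed at or below 0.293 and 0.246 FPKM, and *SCN3B* was not analysed here.

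Of the 28 genes, 2 were higher in Tibetan than in Yorkshire pigs at both altitudes with no overlap of libraries, namely *CACNA2D3* and *KCNK6*, beside 6.90% of all tested genes. Both met the threshold through Tibetan libraries alone, so this count is a description, and its share is near that of all genes. These 2 comparisons share no library. The first gene encodes an auxiliary subunit of calcium channels and lies on chromosome 13 from 40170008 to 40325451. It was at 2.97 and 1.87 FPKM in TH, 2.03 and 1.48 FPKM in TL, 0.0309 and 0.604 FPKM in YH, and 0.723 and 0.227 FPKM in YL. All 4 Tibetan libraries lie above all 4 Yorkshire libraries. The reads were few, 50 to 89 in Tibetan and 1 to 20 in Yorkshire libraries.

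The group means of *CACNA2D3* were 2.42 ± 0.78 FPKM in TH against 0.32 ± 0.41 FPKM in YH (SD, n = 2), a ratio of 7.63 that was 4.01 without YH1, where 1 read was found, and 78.2 without YH2. The log2 fold change was 1.39 ± 0.32 in TH to YH and 0.91 ± 0.32 in TL to YL, the latter 0.67 without YL2. The altitudes overlapped within each breed.

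*KCNK6* encodes a tandem-pore potassium channel of the background kind. It was at 2.31 and 1.39 FPKM in TH, 1.96 and 0.976 FPKM in TL, 0.453 and 0.752 FPKM in YH, and 0.519 and 0.661 FPKM in YL. The lowest Tibetan library, TL2, is above the highest Yorkshire library, YH2. The log2 fold change was 0.82 ± 0.29 in TH to YH and 0.61 ± 0.29 in TL to YL, the latter 0.67 without YL2. Over all 28 genes, the breed differences at the 2 altitudes had the same sign in 13, and in 16 without YL2, beside 51.3% and 49.8% of all tested genes.

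*CACNB3*, another beta subunit, was at 2.79 and 2.16 FPKM in TH, 1.61 and 1.85 FPKM in TL, 1.24 and 0.895 FPKM in YH, and 0.929 and 2.12 FPKM in YL. Both TH libraries were above all 6 others, as they were for *SCNM1*, and this held for 10.1% of all tested genes. In TH to YH the log2 fold change of *CACNB3* was 0.75 ± 0.28 (unadjusted p = 0.0339 in limma). *SCNM1* was at 13.4 and 10.1 FPKM in TH and at 7.07 to 9.49 FPKM elsewhere.

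**Figure D4:**
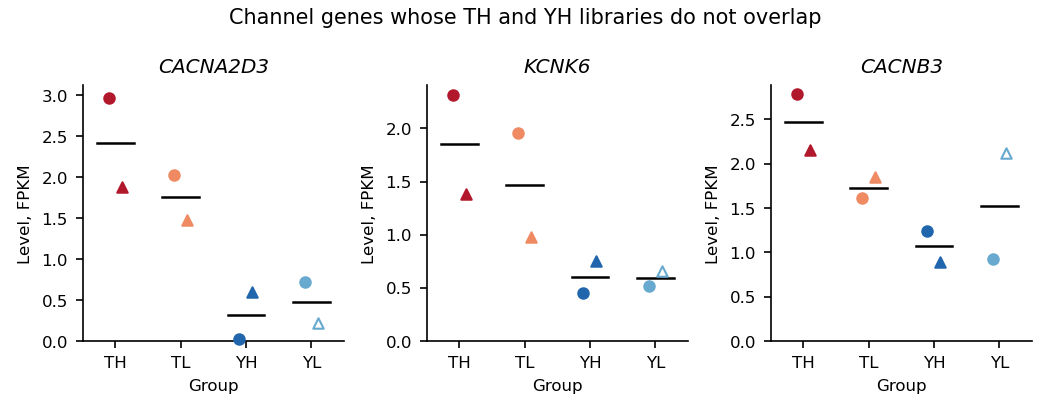
FPKM of 3 channel genes whose TH and YH libraries do not overlap, with a point per library (circle for replicate 1, triangle for replicate 2, open for YL2) and a line at the group mean. For *CACNA2D3* and *KCNK6* all Tibetan libraries lie above all Yorkshire libraries, and for *CACNB3* YL2 at 2.12 FPKM lies above TL and below TH.

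The remaining genes were low and rest on few reads. *KCNK12*, a tandem-pore channel, had 25 and 29 reads in TH and 25 and 73 reads in TL, but 1 and 6 reads in YH and 54 and 0 reads in YL. In FPKM it was at 1.75 and 1.63 in TH against 0.0476 and 0.200 in YH, with a log2 fold change of 1.26 ± 0.67. The YL libraries, at 3.59 and 0 FPKM, span the whole range. *KCNE3*, an auxiliary subunit, was at 1.87 and 3.35 FPKM in YH against 1.23 and 1.14 FPKM in YL (log2 fold change 0.69, unadjusted p = 0.0298 in limma). Without YL2 the log2 fold change of *KCNE3* was 0.67 (unadjusted p = 0.0712 in limma), and without YH2 it was 0.39. *KCNG2*, a silent subunit that joins other voltage-gated pores, had 4 to 47 reads, and *KCNE2* had 0 to 10.

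Most of the 28 genes were lower in YL2 than in YL1, and YL2 held channels of the kidney beside them. The ratio of YL2 to YL1 had a median of 0.455 over the 28 genes, 0.363 over the 13 with a mean of at least 5 FPKM, and 1.03 over all tested genes. YL2 was below YL1 for 23 of the 28 and the lowest of all libraries for 57.1% of them, against 22.4% of all genes that met the same threshold outside YL2 and were above 0 in YL1. The threshold takes no account of YL2, so these shares are a description. The ratio of the heart muscle markers was 0.391, and the part of kidney RNA in these values was not tested. Relative to the highest other library, *CACNB3* was at 0.761 times in YL2, *KCNG2* at 0.739, *SCNM1* at 0.528 and *CACNA1C* at 0.467.

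The 7 channel rows found at 1 FPKM or more only in YL2 are genes that kidney epithelium is known to express. *KCNJ16*, *KCNJ15* and *KCNJ1*, inward rectifiers of kidney epithelium, were at 42.8, 28.3 and 22.0 FPKM in YL2 and at most at 0.0681 FPKM in the other libraries. *SCNN1A* and *SCNN1G*, subunits of the epithelial sodium channel, were at 13.7 and 6.78 FPKM, and the tandem-pore channels *KCNK5* and *KCNK1* at 11.1 and 4.96 FPKM. In YL1 these 7 stayed at or below 0.168 FPKM. *KCNE1*, which kidney also makes, was lowest in YL2, at 55.0 FPKM.

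**Figure D5:**
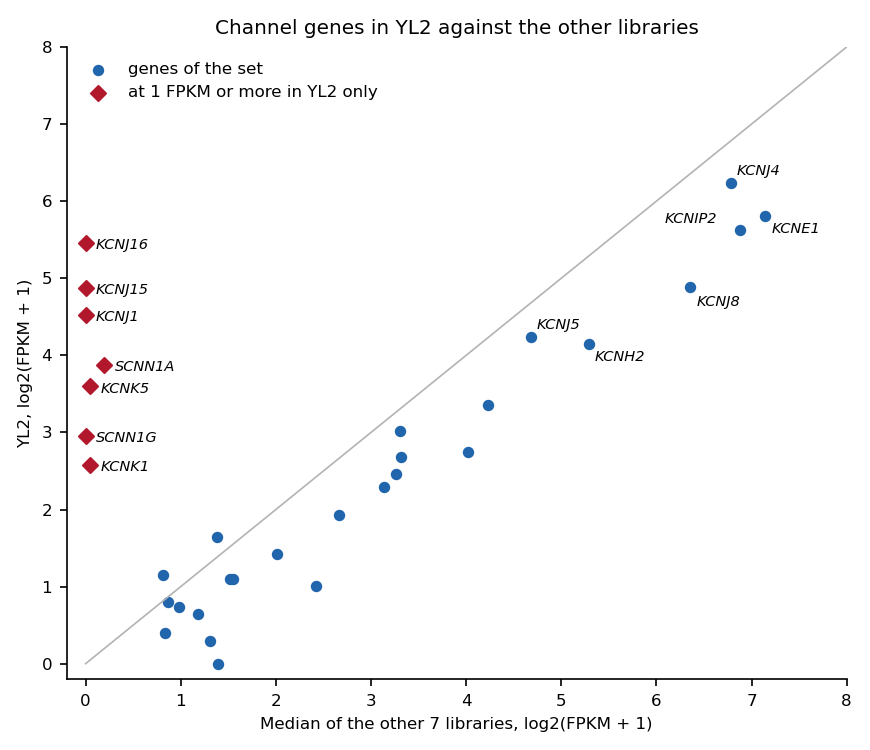
Level in YL2 (vertical axis) against the median of the other 7 libraries (horizontal axis), both as log2(FPKM + 1), for 25 of the 28 channel genes and for the 7 rows at 1 FPKM or more in YL2 only. The high channel genes of heart lie below the line of equal level, and *KCNJ16* at 42.8 FPKM leads the rows of YL2 alone.

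Channels typical of other excitable or immune cells stayed below the threshold. None of 4 skeletal muscle channels, of 12 listed neuronal channels and of 2 immune channels was among the 28. The skeletal muscle channels summed to at most 0.443 FPKM in a library. *KCNA3*, a lymphocyte channel, was at 0.734 and 0.722 FPKM in YH and at most at 0.408 FPKM elsewhere. The lymphocyte marker *CD3E* was at 6.60 and 9.08 FPKM in YH and at 0.858 to 2.84 FPKM elsewhere, and the part of such cells in that value was not tested.

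Genes that work with these channels were read from a list of 36 anchors, regulators, pumps and gap junction genes, of which 32 were listed and 25 tested. None was called. At an unadjusted p under 0.05, 0 partners were higher and 2 lower in TH to YH, beside 7.71% and 8.47% of all tested genes, and 1 was higher and 1 lower in TH to TL, beside 5.81% and 5.53%. In TL to YL 4 were higher and 0 lower, beside 5.90% and 3.04%, and without YL2 2 were higher and 1 lower, beside 5.83% and 3.89%. In YH to YL 0 partners passed in either direction, beside 4.39% of all tested genes higher and 1.58% lower, and 0 passed without YL2, beside 3.41% and 2.04%. The partner with the largest difference was *SLC8A1*, the sodium-calcium exchanger, at 2.66 and 17.9 FPKM in TH, 16.2 and 13.3 FPKM in TL, 23.3 and 32.7 FPKM in YH, and 12.3 and 11.8 FPKM in YL. In TH to YH its log2 fold change was -1.78 (unadjusted p = 0.0351 in limma), and -0.60 without TH1. TH1 is far below the 7 others, and TH2 lies below YH and above TL and YL.

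*RRAD*, a small GTPase that restrains L-type calcium channels, was at 272 and 242 FPKM in TH, 421 and 336 FPKM in TL, 208 and 283 FPKM in YH, and 204 and 89.8 FPKM in YL, with TL above all other libraries. *ABCC9*, the sulfonylurea receptor that partners *KCNJ8* and *KCNJ11*, was at 4.97 and 12.4 FPKM in TH, 10.7 and 12.1 FPKM in TL, 9.32 and 10.3 FPKM in YH, and 7.21 and 2.62 FPKM in YL. *FGF13*, which modulates sodium channels, was at 8.12 and 5.93 FPKM in TH and 8.56 and 8.04 FPKM in TL, against 4.02 and 3.44 FPKM in YH and 6.06 and 2.17 FPKM in YL. Tibetan libraries were above Yorkshire libraries at each altitude for *FGF13*, with log2 fold changes of 0.75 in TH to YH (unadjusted p = 0.0889 in limma) and 0.97 in TL to YL (unadjusted p = 0.0378), the latter 0.40 without YL2 (unadjusted p = 0.165 in limma).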

How the data were processed

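Heart RNA of 4 groups with 2 libraries each was sequenced, and per the labels the authors used TopHat2 2.0.9, Bowtie 0.12.5 and DESeq 1.10.1 with Sscrofa10.2. The FPKM values deposited by the authors were computed with Cufflinks. The table also holds a signal per gene and library, which the authors obtained by scaling reads with a common factor for the library. Divided by its smallest step, 99.8% of low values are whole within 0.1 read, and the reads given here are so obtained. They are approximate: a stricter check of whole reads failed for 7 of the 8 columns, and no count test was run. Group means, ratios and per-group files were not used.

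With limma 3.58.1 in R 4.3.3, log2(FPKM + 1) was fitted over all 8 libraries by group means, with variances moderated along the mean (4 residual and 2.83 prior degrees of freedom), for genes that reached 1 FPKM in 2 libraries or more. P-values were adjusted over all 11913 genes. Tables and figures were made with Python 3.11.15, pandas 2.3.3, numpy 2.4.6 and matplotlib 3.10.9. On simulated data, 65% of 200 genes, set 3 apart on the log2 scale in TH to YH among 11913, were called, with 1 false call.

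The channel genes and all lists (ventricular, atrial and nodal, smooth muscle, skeletal muscle, immune, kidney and neuronal channels, partners and cell markers) were chosen with earlier results of these data known. Genes were named where they are on the ventricular or atrial and nodal list, among the 10 highest, among the 3 largest differences in either direction without overlap in a comparison, near the threshold, or highest in YL2. *KCNK6*, *KCNE3*, marker genes and other channel genes below the threshold were named after their values were seen, and of the partners the 5 with the largest differences were chosen. Some genes so chosen, 3 of the 28 among them, are not reported here, but counts and medians include them. Alternatives were another pseudocount, filter, scaling, variance model, set of libraries and threshold, a replicate term and each library left out. No sequences or genome were used here.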

Additional observations from a re-analysis of the deposited data

How the results depend on the processing

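Counts of channel genes called stayed at 0 in all 5 tests under a pseudocount of 0.1 FPKM, no filter, median-ratio scaling, no variance trend, a fit of the compared libraries alone (run for 4 of the 5, without the interaction), an adjusted p threshold of 0.05 and log2 of scaled reads, which was chosen after seeing the data in place of 2 planned count tests that were not run. Scaling to an equal FPKM sum shifts the median of all tested genes to -0.59 in TH to YH. This median is shifted to -0.25 in TL to YL and -0.33 in TH to TL. Under this scaling 1 gene (*KCNIP2*) was called in TH to YH and 1 in TH to TL. The log2 fold change of *KCNIP2* in TH to TL was then -3.47. The share of all tested genes called under this scaling is not given here. At an unadjusted p under 0.01 in limma, with the same fold threshold, the counts were 2 in TH to YH, 4 in TH to TL and 3 in the interaction. They include *CACNA2D3*, *KCNT2* and *KCNAB1*, which were chosen through the groups where they are high. The shares of all tested genes under this rule are not given here, so these counts are a description. With each library left out in turn the interaction had 0 to 1 (*KCNIP2*, without YL1) called genes, and the lone library of a group was then assumed to vary like the others.

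The median of the 28 genes in TH to YH was -0.80 with FPKM-sum scaling and -0.34 with scaled reads, and -0.31 to -0.15 with a library left out (-0.31 without TH2). In TH to TL it was -0.44 with FPKM-sum scaling and -0.20 to 0.022 with a library left out (0.022 without TL2). In TL to YL it ranged from 0.0029 to 0.75 and in YH to YL from 0.021 to 0.71, with the low ends without YL2. Of 24 single-gene differences, chosen for an unadjusted p under 0.05 or their size without overlap, that of *KCNH2* in TH to YH reversed, to -0.049 with FPKM-sum scaling, those of *KCNIP2* passed the test there, and the other 199 values kept their direction and side of the threshold. Over all 28 genes the sign turned without YL2 for 9 in TL to YL, 12 in YH to YL and 7 in the interaction. The cause of these shifts was not tested.

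Replicate numbers are not said to pair the libraries, and their deviations correlate at -0.084 to 0.118 between groups. With a replicate block, 0 channel genes were called in each test. Genes with few reads (*KCNE2*, *KCNK12*, *KCNG2*) are limited by depth.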
